A study of Mus musculus with 4 samples.

Results

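SR proteins and heterogeneous nuclear ribonucleoproteins (hnRNPs) are the 2 large classes of RNA-binding proteins that set which exons of a pre-mRNA are joined. The genes described here were taken by symbol: every gene named Srsf with a number, every gene named Hnrnp, the SR-related genes Tra2a, Tra2b, Srrm1 and Srrm2, the polypyrimidine tract-binding genes Ptbp1, Ptbp2 and Ptbp3, and Celf1, Rbfox2, Esrp1, Esrp2, Mbnl1 and Mbnl2. This gave 44 of the 24411 genes listed, namely 11 SR, 4 SR-related, 20 hnRNP, 3 PTB and 6 other regulators, and 41 of them had enough counts to be tested. The rule itself reads gene symbols only.

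The RNA came from late two-cell mouse embryos of the ICR strain, made by in vitro fertilization and cultured in KSOM medium with albumin until 36 h post-insemination (hpi). Control embryos received DMSO, the vehicle, and treated embryos received a small-molecule MYC inhibitor at 6 µM, which binds MYC and blocks its pairing with MAX. Exposure began at the one-cell stage (3 hpi in the sample labels, 6 hpi in the series design) and lasted until collection. Each group had 2 libraries of 10 pooled embryos, prepared from polyadenylated RNA by PCR amplification of cDNA, so the embryo-to-embryo spread within a pool is not seen.

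SR proteins carry 1 or more RNA recognition motifs and a tail rich in arginine and serine, and classically bind exonic enhancers and promote the use of the exon. Most hnRNPs coat nascent transcripts, and many bind silencers and oppose exon use, so the balance between both classes influences alternative splicing. Several genes of either class limit their own output through a highly conserved poison exon, whose inclusion sends the mRNA to nonsense-mediated decay. In other cells, MYC is known to activate splicing regulators such as Srsf1, Hnrnpa1 and Ptbp1. At the late two-cell stage the mouse embryo degrades maternal mRNA and starts major zygotic genome activation (ZGA), and its splicing factors come from both sources.

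Fragment totals ranged from 18206584 to 20718690 per library. Levels per library are given as CPM, the counts relative to the library total, scaled with TMM factors, in the order replicate 1, replicate 2, and levels of different genes are compared only as FPKM, which is per transcript length. The control libraries differed from each other: across genes, log2 CPM correlated at r = 0.887 between them and at r = 0.931 between the treated libraries, and for 77.2% of tested genes control replicate 1 lay farther than control replicate 2 from the treated mean. Two-cell marker genes, such as the Zscan4 family, summed to 978 and 3680 FPKM in the controls and to 4774 and 5057 FPKM in treated embryos, and 8 of the 9 tested were higher after treatment. Oocyte and maternal marker genes summed to 1480 and 5082 FPKM in the controls and to 10350 and 7412 FPKM in treated embryos, with 11 of 12 higher. The cumulus markers Ptx3, Inhba and Foxl2 and the sperm markers Prm1, Tnp2, Smcp and Gapdhs were listed at 0 in every library. Other genes of these lists were detected. Controls first, Amhr2 of the cumulus list was at 21.5, 8.57, 5.57 and 4.45 FPKM. In the sperm list, Odf2 was at 12.4, 38.5, 59.8 and 42.8 FPKM and Ldhc at 40.5, 29.4, 19.3 and 31.2 FPKM. Summed cumulus markers were 22.7, 14.4, 12.9 and 7.69 FPKM, summed sperm markers 55.6, 72.4, 95.2 and 83.5 FPKM, and summed blastocyst markers 36.5, 39.9, 20.0 and 25.9 FPKM, controls first. Most of the blastocyst sum came from Gata4 and Fgf4, which were lower in both treated libraries than in both controls. Of the 7 tested blastocyst genes, 5 were higher after treatment and 2 lower, so the sum does not give the direction of most of them. The part of these differences in the results on splicing regulators was not tested, and embryos with fewer cells of a state cannot be told apart from less RNA per cell.

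Most SR and hnRNP genes had lower transcript levels in inhibitor-treated embryos, and the medians of the fitted changes of both families were close. A log2 fold change (log2FC) compares treated with control embryos throughout. The median over the 10 tested SR genes was -0.79, with 9 lower and 1 higher. Among the 20 hnRNP genes the median was -0.76, with 17 lower and 3 higher. The median over all 13549 tested genes was 0.04, and 48.5% of them were lower.

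No member passed the thresholds of an absolute log2FC above 1 and a Benjamini-Hochberg adjusted p under 0.05 in edgeR, and the percentage of all tested genes called was 0.0 in either direction. The smallest adjusted p of a member was 0.333. At an unadjusted p under 0.05, 10 members were lower, against 10.1% of tested genes, and 0 were higher, against 4.72%. DESeq2 is the tool with which the study called genes. Run here with transcript lengths and the same thresholds, it called 4 members lower (Srsf1, Srsf5, Tra2a and Tra2b), beside 2.41% of genes. It called 0 higher, beside 0.478%. The same 4 and no others were called by DESeq2 on the genes edgeR tested (3.54% of genes lower and 0.716% higher), by DESeq2 on every gene with a count (2.4% and 0.478%) and by edgeR without the filter on low counts (2.63% and 0.906%). With a replicate block edgeR called 0 members (0.236% of genes lower and 0.0886% higher). Without control replicate 2 the members' median log2FC was -0.85. That fit leaves 1 control library, so its calls hold no spread between controls and are not given. A log2FC below -1 was seen for 12 of the 41 members, against 17.8% of tested genes, and a log2FC above 1 for 0 members, against 18.1%.

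The groups of libraries did not overlap, with both treated libraries lower, for 25 of the 41 members, against 28.3% of tested genes. For 4 members (Hnrnpul1, Ptbp2, Rbfox2 and Esrp1) both treated libraries were higher without overlap, against 28.9%. Control replicate 1 was the control library farther from the treated mean for 37 members, against 77.2% as given above. Without it, 31 of the 32 lower members stayed lower, but the members' median moved from -0.68 to -0.32, and only Srsf5 and Tra2b kept a log2FC below -1 among the 12. The median of all tested genes was then 0.03, with 48.1% lower.

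**Figure D1:**
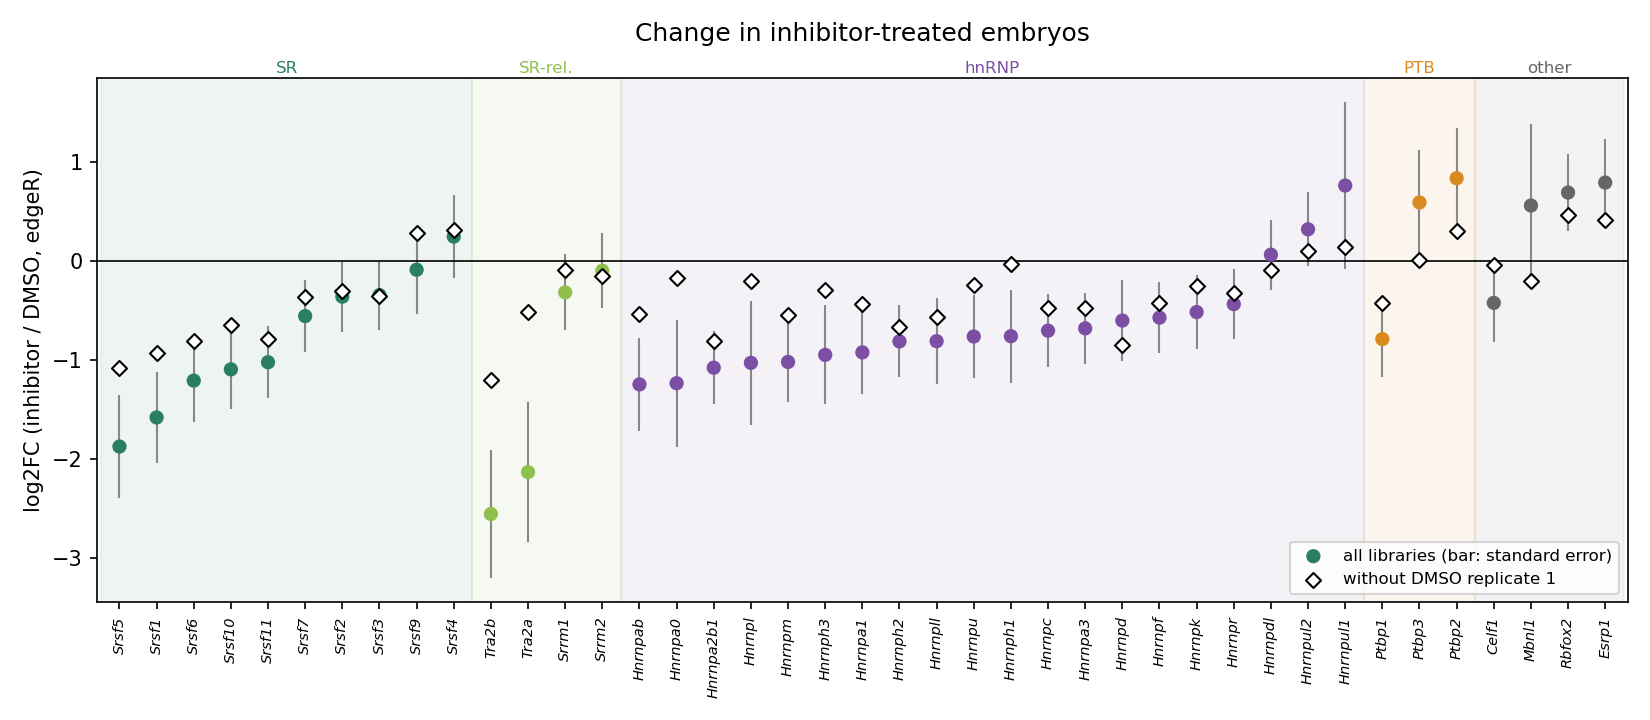
Log2FC of inhibitor-treated over control (DMSO) embryos (y axis) for each of the 41 tested members (x axis, grouped by family and ordered by value), with filled points from edgeR on all libraries, bars of 1 standard error and open diamonds for the value without control replicate 1. The SR and hnRNP genes lie mostly below 0, Tra2b is lowest at -2.55, and most diamonds lie nearer to 0 than the filled points.

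The SR and hnRNP families were set against each other library by library. Each gene's log2 CPM was centred on its mean over the 4 libraries, and the median was taken over a family. The SR median was 0.58 and 0.17 in the control libraries and -0.46 and -0.39 in the treated libraries. The hnRNP median was 0.58 and 0.10 in the controls and -0.40 and -0.28 in the treated libraries. In both families the 2 treated libraries were below the 2 control libraries, and control replicate 1 was highest.

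The SR median minus the hnRNP median was 0.00 and 0.07 in the controls and -0.06 and -0.12 in treated embryos. By this measure the SR family was lower relative to the hnRNP family after treatment, without overlap of the groups. In the fitted values, the SR median log2FC minus the hnRNP median log2FC was -0.03, and this difference changed sign when some libraries were left out. The exact permutation test of 2 against 2 libraries cannot give a p below 0.333, so it cannot show that the families differed.

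**Figure D2:**
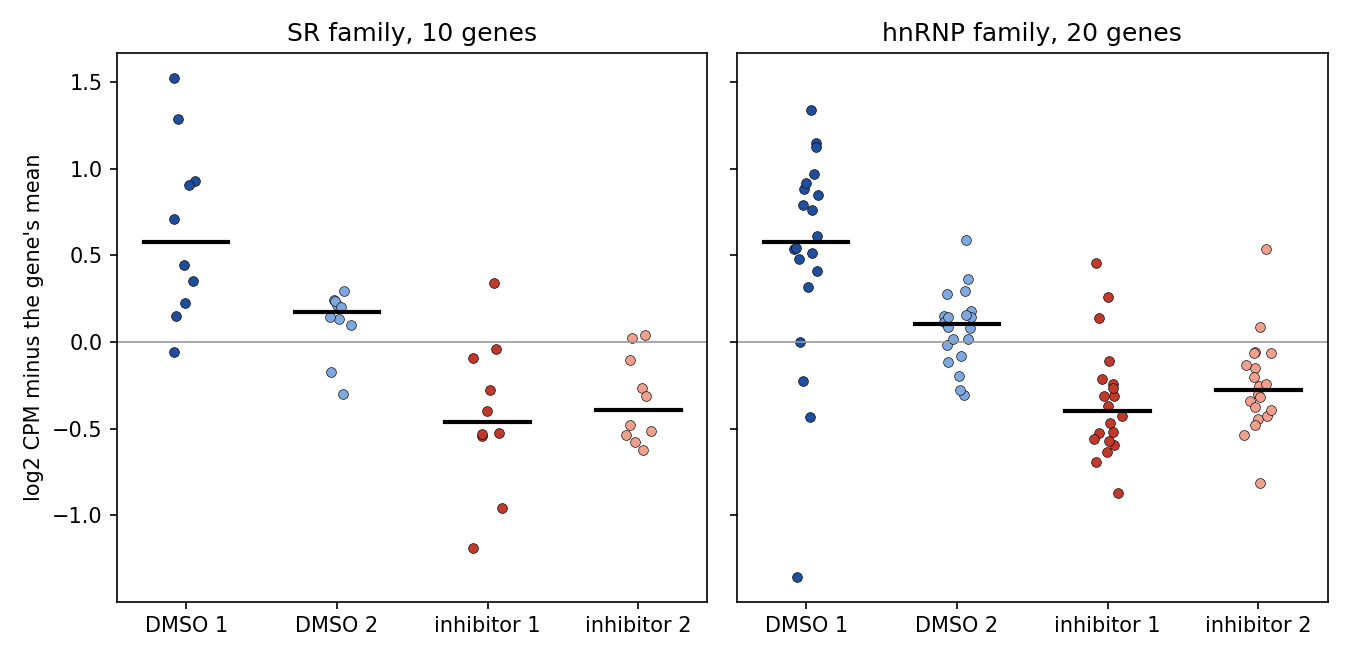
Log2 CPM of each SR gene (left, 10 genes) and each hnRNP gene (right, 20 genes) minus that gene's mean over the 4 libraries (y axis), 1 point per gene in each library (x axis), with black lines for the medians. The medians of both families step from 0.58 in control replicate 1 down to -0.46 and -0.40 in treated replicate 1.

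By summed FPKM, which weights a family towards its most abundant genes, SR transcripts were 1848 and 1246 in the controls and 743 and 862 in treated embryos. The hnRNP sum was 2751 and 2119 in controls and 1508 and 1667 in treated embryos. The SR sum was thus 0.672 and 0.588 of the hnRNP sum in the controls and 0.493 and 0.517 of it after treatment, with no overlap of the groups. The SR sum was lower relative to the hnRNP sum in this measure too. Srsf5 was the largest part of the SR sum in every library except treated replicate 1. It made up 48.2% and 35.1% of that sum in controls and 21.7% and 29.3% after treatment. The ratio of sums therefore leans on Srsf5 and does not show that the SR family as a whole fell against the hnRNP family.

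Within the SR family, the genes with the lowest log2FC were Srsf5, Srsf1 and Srsf6, all of which encode proteins with a pair of RNA recognition motifs. Srsf5 (chr12:80945495-80950507, GRCm38) measured 1286 and 530 CPM in the controls and 196 and 300.0 CPM in treated embryos. Both treated libraries were below both controls, and the controls themselves differed by more than the treated libraries. The mean was 3.66-fold lower, with a log2FC of -1.87 ± 0.52 (SE), an adjusted p of 0.333 by edgeR and of 0.0119 by DESeq2 with lengths. Without control replicate 1 the log2FC of Srsf5 was -1.08.

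Srsf1, the prototype SR protein and a known proto-oncogene, measured 585 and 278 CPM in controls and 124 and 166 CPM in treated embryos (chr11:88046499-88053757). The groups did not overlap, and the log2FC was -1.58 ± 0.46 (SE), with an adjusted p of 0.333 by edgeR and 0.0266 by DESeq2 with lengths. Without control replicate 1 it was -0.93. Srsf6, known for its role in wound healing and skin, was at 86.9 and 53.9 CPM in controls and 31.4 and 29.7 CPM in treated embryos. Its log2FC was -1.21 ± 0.41 (SE), or -0.81 without control replicate 1, and its treated libraries were nearly equal and below both controls.

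Srsf10, an SR protein that acts as a repressor when dephosphorylated in mitosis or heat shock, measured 842 and 493 CPM in controls and 311 and 315 CPM in treated embryos. Srsf11, which encodes an SR-like protein of about the size of a U2AF subunit, measured 142 and 106 CPM in controls and 60.2 and 62.1 CPM in treated embryos. Their log2FC values were -1.09 and -1.02, both had an unadjusted p under 0.05, and neither had overlapping groups. Each moved closer to 0 without control replicate 1, to -0.64 and -0.78.

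The shuttling SR gene Srsf7 measured 751 and 593 CPM in controls and 455 and 460 CPM in treated embryos, a log2FC of -0.55 ± 0.36 (SE, adjusted p = 0.465 by edgeR). Srsf3, its close relative and the smallest SR protein, measured 281 and 291 CPM in controls and 247 and 205 CPM in treated embryos, a log2FC of -0.34. Srsf2 (SC35), a marker protein of nuclear speckles, measured 153 and 144 CPM in controls and 99.1 and 133 CPM in treated embryos, a log2FC of -0.36. For these 3 genes the groups did not overlap, but none had an unadjusted p under 0.05. Srsf3 and Srsf2 had like values in both control libraries.

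At the upper end, Srsf4 measured 27.8 and 25.7 CPM in controls and 36.7 and 26.9 CPM in treated embryos, a log2FC of 0.25 ± 0.42 (SE). Srsf9 measured 31.6 and 20.1 CPM in controls and 23.2 and 25.5 CPM in treated embryos, a log2FC of -0.09 ± 0.44 (SE). Both genes had overlapping groups. Srsf12 did not pass the count filter, with 4 and 0 counts in controls and 28 and 0 counts in treated embryos. The 5 tested SR genes whose proteins have a pair of RNA recognition motifs (Srsf1, Srsf4, Srsf5, Srsf6 and Srsf9) had a median of -1.21, and the 5 with a single motif (Srsf2, Srsf3, Srsf7, Srsf10 and Srsf11) had a median of -0.55, or -0.81 and -0.36 without control replicate 1. The first set held both ends of the family. Lower values without overlap were seen for 3 of 5 genes of the first set and 5 of 5 of the second. The share was 8 of 10 in the tested SR family and 28.3% among all tested genes.

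**Figure D3:**
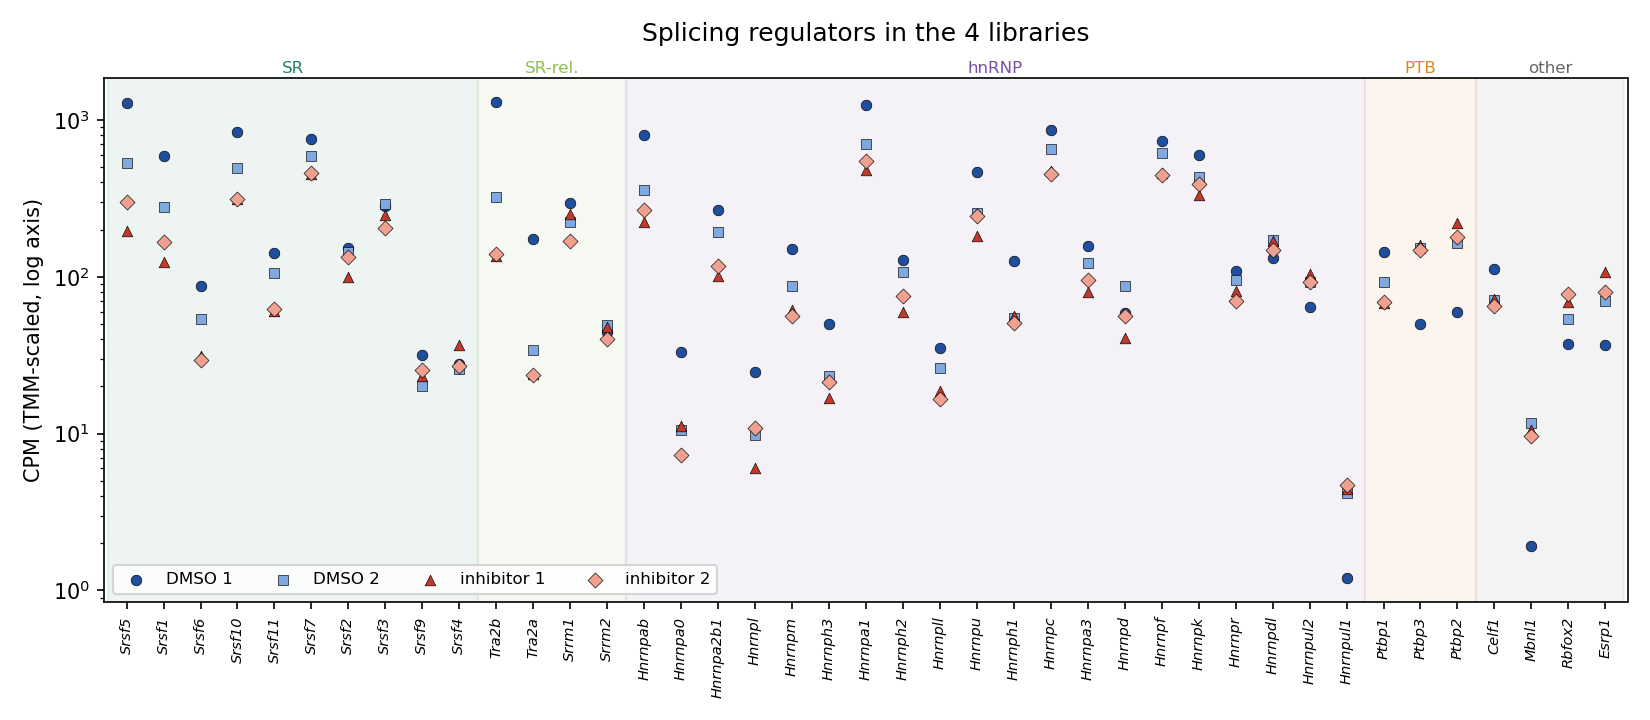
TMM-scaled CPM (y axis, log scale) of the 41 tested members (x axis, grouped by family) in the 2 control (DMSO) and 2 inhibitor-treated libraries, 1 symbol per library. Srsf5, Srsf1, Tra2b and Tra2a show the treated symbols together below the control symbols, with control replicate 1 on top.

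Tra2a and Tra2b, the SR-like homologs of the fly sex-determination factor transformer 2, had the lowest log2FC of all members. Tra2b (chr16:22244552-22266005) measured 1305 and 321 CPM in the controls and 136 and 140.4 CPM in treated embryos. Its treated libraries were nearly equal, while control replicate 1 was far above control replicate 2. The log2FC was -2.55 ± 0.65 (SE), with an adjusted p of 0.333 by edgeR and 0.00183 by DESeq2 with lengths, and it was -1.20 without control replicate 1 and -3.24 without control replicate 2.

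Tra2a (chr6:49243921-49264248) measured 174 and 34.3 CPM in the controls and 23.9 and 23.6 CPM in treated embryos. The groups did not overlap, and the log2FC was -2.13 ± 0.71 (SE), with an adjusted p of 0.333 by edgeR and 0.0237 by DESeq2 with lengths. Control replicate 2 was much nearer to the treated libraries than to control replicate 1, and without control replicate 1 the log2FC of Tra2a was -0.52. By FPKM, Tra2b exceeded Tra2a by 6.26 and 7.82 times in controls and by 4.76 and 4.98 times in treated embryos, so the ratio was lower after treatment without overlap.

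The coactivators Srrm1 and Srrm2, large SR-related proteins that lack an RNA recognition motif, were near their control levels. Srrm1 measured 297 and 224 CPM in controls and 252 and 168 CPM in treated embryos, a log2FC of -0.31 ± 0.39 (SE), or -0.08 without control replicate 1. Srrm2, a core protein of nuclear speckles, measured 44.4 and 49.1 CPM in controls and 47.7 and 39.8 CPM in treated embryos, a log2FC of -0.09 ± 0.38 (SE). The groups overlapped for both, and the sign for Srrm2 was the opposite when libraries were scaled by their totals (0.03).

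The sequences just upstream of the 3 members with the lowest log2FC are shown because MYC binds E-boxes, of the form CANNTG and preferably CACGTG. They are the 150 bases before the start of transcription in RefSeq (GRCm38.p6), 5′ to 3′ on the strand of the gene, with any CANNTG in capitals. Tra2b lies at chr16:22266006-22266155 on the minus strand, Tra2a at chr6:49264053-49264202 on the minus strand, and Srsf5 at chr12:80945349-80945498 on the plus strand. The RefSeq start used for Tra2a lies inside the gene span given above, so its stretch is upstream of that start but not of the whole gene.
Tra2b: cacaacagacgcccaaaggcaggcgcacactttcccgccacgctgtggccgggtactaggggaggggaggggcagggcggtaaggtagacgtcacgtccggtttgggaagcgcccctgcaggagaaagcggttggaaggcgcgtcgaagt
Tra2a: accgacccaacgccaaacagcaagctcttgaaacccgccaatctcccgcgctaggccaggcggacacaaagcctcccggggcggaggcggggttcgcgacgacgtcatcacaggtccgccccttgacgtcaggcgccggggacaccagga
Srsf5: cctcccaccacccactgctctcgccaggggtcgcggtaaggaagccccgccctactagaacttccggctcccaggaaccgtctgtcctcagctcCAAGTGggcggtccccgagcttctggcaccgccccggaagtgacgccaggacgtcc
The G and C content was 65.3%, 67.3% and 68.0%. CANNTG was found 0, 0 and 1 times, and CACGTG in 0 of the 3. Among the promoters of tested genes, 40.8% held CANNTG in this window on either strand, as did 30.8% of the members' 52 promoters.

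The letters CACGTG, which read the same on both strands, were also searched from 250 bases before to 50 bases after each RefSeq start. A promoter entry was found for 38 of the 44 members, and Esrp1, Esrp2, Hnrnpll, Hnrnpul2, Ptbp3 and Rbfox2 had none in the table. CACGTG was present for 0 of 11 SR genes, 0 of 4 SR-related genes and 5 of 18 hnRNP genes (27.8%), beside 11.5% of the 10782 tested genes with an entry. The 5 hnRNP genes and Ptbp1 are shown, from 50 bases before the motif to a point before the start or, where the motif itself lies past the start (Hnrnph2 and Hnrnpm), a short way beyond it, since they are the SR, hnRNP and PTB genes that hold these letters. The motif is in capitals. Coordinates are GRCm38.p6, namely Hnrnpa3 at chr2:75659191-75659258 (plus), Hnrnpd at chr5:99978939-99979020 (minus), Hnrnpf at chr6:117907675-117907774 (plus), Hnrnph2 at chrX:134601144-134601205 (plus), Hnrnpm at chr17:33685434-33685495 (minus) and Ptbp1 at chr10:79854337-79854431 (plus).
Hnrnpa3: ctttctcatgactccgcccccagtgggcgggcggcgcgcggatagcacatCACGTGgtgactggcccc
Hnrnpd: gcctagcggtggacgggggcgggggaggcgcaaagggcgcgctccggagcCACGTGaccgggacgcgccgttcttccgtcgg
Hnrnpf: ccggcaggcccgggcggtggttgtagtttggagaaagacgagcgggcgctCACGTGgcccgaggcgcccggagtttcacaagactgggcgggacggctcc
Hnrnph2: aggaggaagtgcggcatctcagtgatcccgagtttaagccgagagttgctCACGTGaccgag
Hnrnpm: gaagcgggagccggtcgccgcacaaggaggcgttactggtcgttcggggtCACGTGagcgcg
Ptbp1: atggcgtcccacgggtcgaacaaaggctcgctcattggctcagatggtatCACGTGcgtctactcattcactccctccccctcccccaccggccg
The motif began at -18, -32, -79, 16, 14 and -45 relative to the start, in that order. The log2FC of these 6 genes was -0.68, -0.60, -0.57, -0.81, -1.02 and -0.79. Each of these 6 was lower without overlap of the groups, as were 25 of the 41 tested members and 28.3% of all tested genes. The members with the lowest log2FC (Tra2b, Tra2a, Srsf5 and Srsf1) were not among the 6. Mbnl1, one of the other regulators, also held CACGTG, and it had a log2FC of 0.56 with overlapping groups. Counting Mbnl1, 7 of the 38 members with an entry held the motif (18.4%). A match of letters is a description and does not show that MYC binds there.

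Among the hnRNPs, the A/B subfamily, whose proteins carry a pair of RNA recognition motifs and a glycine-rich tail, had 5 of 5 genes lower and a median log2FC of -1.07, or -0.47 without control replicate 1. Hnrnpab measured 800.3 and 357 CPM in controls and 223 and 266 CPM in treated embryos, the lowest log2FC of the family at -1.24 ± 0.47 (SE). Hnrnpa2b1, which also binds sorting motifs in RNA, measured 268 and 194 CPM in controls and 102 and 118 CPM in treated embryos, a log2FC of -1.07 ± 0.37 (SE). Both had adjusted p = 0.333 by edgeR and no overlap of the groups. Without control replicate 1 they were at -0.53 and -0.81.

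Hnrnpa1, the most abundant hnRNP transcript here and a silencer-binding antagonist of SRSF1, measured 1241 and 700.1 CPM in controls and 480.0 and 546 CPM in treated embryos. The groups did not overlap, and the log2FC was -0.92 ± 0.42 (SE, adjusted p = 0.347 by edgeR), or -0.43 without control replicate 1. Its expected counts were not all whole numbers, as were those of Hnrnpa3, Hnrnph3 and Srsf4, so these 4 levels are less certain, and the source of the split was not tested. Hnrnpa0 measured 33.0 and 10.5 CPM in controls and 11.2 and 7.35 CPM in treated embryos, with a log2FC of -1.23, but its groups overlapped and its log2FC was -0.17 without control replicate 1.

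Hnrnpm, which competes with ESRP1 over exons in epithelial cells, measured 151 and 86.8 CPM in controls and 61.1 and 56.6 CPM in treated embryos. Its log2FC was -1.02 ± 0.41 (SE, adjusted p = 0.333 by edgeR), or -0.55 without control replicate 1, and its groups did not overlap. The abundant gene Hnrnpc, whose protein binds uridine tracts and measures the length of transcripts, measured 858 and 651 CPM in controls and 475 and 454 CPM in treated embryos. Hnrnpk, a KH-domain protein that binds cytidine-rich RNA, measured 595 and 432 CPM in controls and 331 and 389 CPM in treated embryos. Hnrnpc and Hnrnpk had log2FC values of -0.70 and -0.51, or -0.47 and -0.25 without control replicate 1, and in each the treated libraries lay below both controls.

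The H/F subfamily, whose proteins bind runs of guanosines, had 4 of 4 genes lower and a median log2FC of -0.78, or -0.35 without control replicate 1. Hnrnpf, its most abundant member, measured 733 and 613 CPM in controls and 460 and 448 CPM in treated embryos, a log2FC of -0.57 ± 0.36 (SE). The groups did not overlap for Hnrnpf, Hnrnph2 and Hnrnph3, whereas those of Hnrnph1 did, and without control replicate 1 the log2FC of Hnrnph1 was -0.02. The L genes Hnrnpl and Hnrnpll had a median of -0.92, or -0.38 without control replicate 1. Hnrnpl measured 24.5 and 9.80 CPM in controls and 6.08 and 10.8 CPM in treated embryos, and its groups overlapped.

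Hnrnpu and Hnrnpd, a scaffold protein of the nuclear matrix and the AU-rich element binder AUF1, were lower without overlap, with log2FC values of -0.76 and -0.60, or -0.24 and -0.85 without control replicate 1. The 4 highest log2FC values of the family were those of Hnrnpul1, Hnrnpul2, Hnrnpdl and Hnrnpr. Hnrnpul1, a relative of the scaffold protein HNRNPU, was low throughout, at 1.20 and 4.18 CPM in controls and 4.45 and 4.72 CPM in treated embryos. Its log2FC was 0.77 ± 0.85 (SE) and 0.15 without control replicate 1, which held 20 counts of it. Hnrnpul2 measured 64.3 and 92.1 CPM in controls and 104 and 92.0 CPM in treated embryos. Hnrnpdl, an AU-rich element binder with a self-regulating poison exon, measured 132 and 171 CPM in controls and 170.2 and 148 CPM in treated embryos, and the groups of both overlapped. Hnrnpr, which encodes a protein known from axonal mRNA transport, measured 109 and 95.5 CPM in controls and 81.4 and 70.5 CPM in treated embryos, a log2FC of -0.43 without overlap.

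Srsf5 took a smaller share of the SR transcripts in treated embryos, and Srsf7 a larger one. Srsf5 was 48.2% and 35.1% of summed SR FPKM in the controls and 21.7% and 29.3% in treated embryos, or 41.7% ± 9.23 against 25.5% ± 5.35 (SD, n = 2). Srsf7 was 15.9% and 20.9% in controls and 26.9% and 23.8% in treated embryos. In treated replicate 1 Srsf7 thus exceeded Srsf5, with a ratio of their FPKM of 1.24, whereas the ratio was 0.812 in treated replicate 2 and 0.330 and 0.596 in controls. The groups did not overlap for either share.

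Among the other abundant SR genes, the share of Srsf10 was 14.9% and 15.5% in controls and 16.1% and 14.5% in treated embryos, and overlapped. The share of Srsf3 was 5.18% and 8.98% in controls and 12.7% and 9.28% in treated embryos, higher without overlap. Srsf5, Srsf7 and Srsf10 together made up 79.0% and 71.5% of SR FPKM in controls and 64.7% and 67.6% in treated embryos. These 3 genes thus held a smaller part of the SR sum in treated embryos, and of the 3 only Srsf5 had a lower share without overlap. A larger share is not a higher level: Srsf7 was at 294 and 261 FPKM in controls and 200 and 205 FPKM in treated embryos. Whether SR transcripts were spread more evenly over the genes was not tested.

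In the hnRNP family, Hnrnpa1 was 37.0% and 32.3% of summed FPKM in controls and 30.9% and 32.9% in treated embryos, with overlap. The shares of Hnrnpf (12.2% and 15.9% against 16.7% and 15.1%) and Hnrnpc (10.8% and 12.7% against 13.0% and 11.4%) overlapped as well. These 3 genes together made up 60.03% and 60.8% in controls and 60.7% and 59.4% in treated embryos. Of the other hnRNP shares, some did not overlap, and others, such as that of Hnrnpu, did. Hnrnpab was 11.7% and 8.08% in controls and 7.11% and 7.80% in treated embryos, and Hnrnpa2b1 was 4.28% and 4.77% against 3.50% and 3.74%, both lower. Hnrnpk was 7.37% and 8.28% in controls and 8.90% and 9.66% in treated embryos, and Hnrnpdl was 1.70% and 3.39% against 4.74% and 3.80%, both higher. Whether the makeup differed more in one family than in the other was not tested. With Hnrnpab and Hnrnpk added to the first 3, the 5 most abundant genes held 79.1% and 77.2% in controls and 76.7% and 76.9% in treated embryos.

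**Figure D4:**
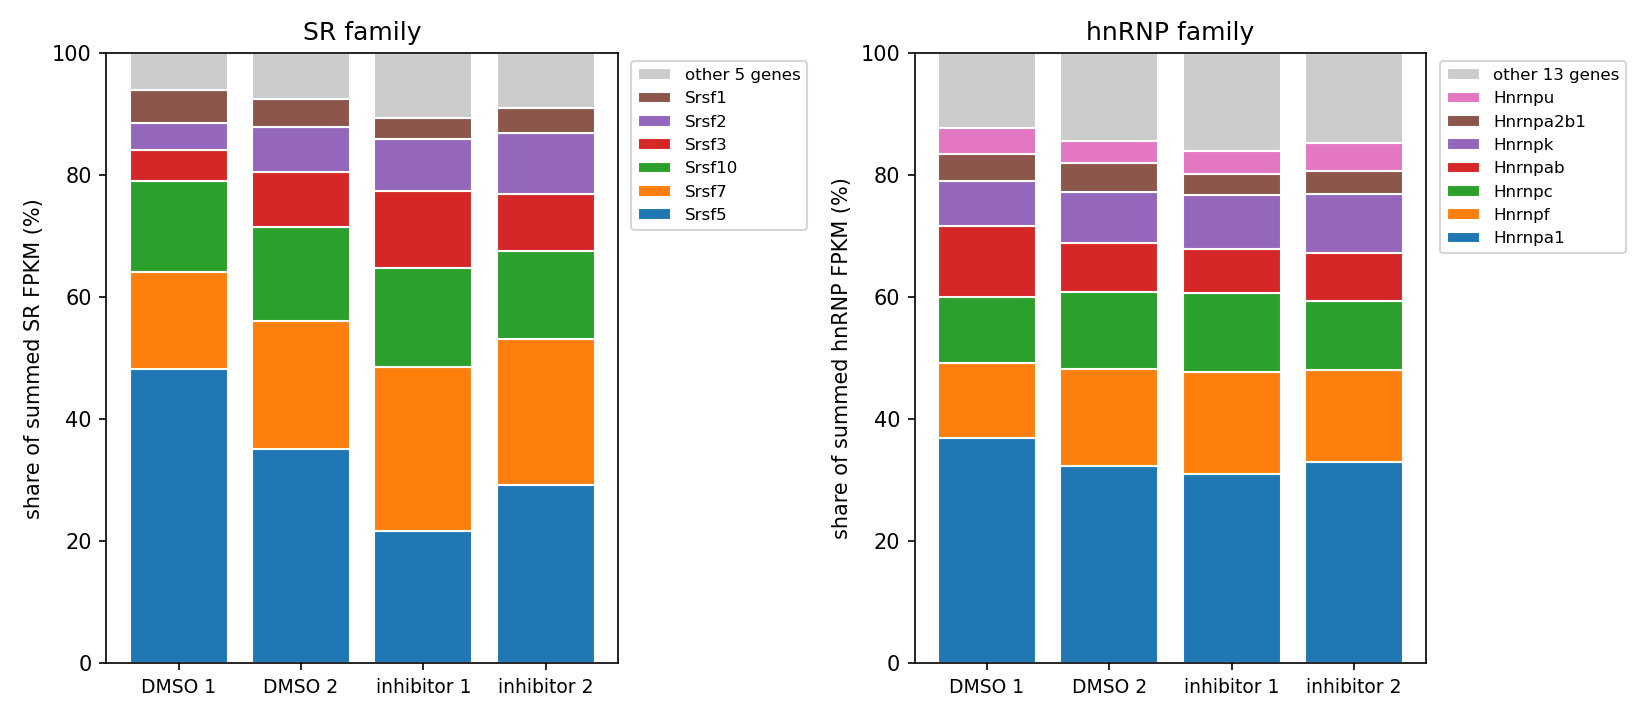
Share of the most abundant genes and of the rest in the summed FPKM of their family (y axis, percent, stacked) in each library (x axis), for the SR family (left) and the hnRNP family (right). Srsf5 takes 48.2% and 35.1% in the controls and 21.7% and 29.3% in the treated libraries, while Hnrnpa1 stays between 30.9% and 37.0%.

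The PTB genes did not move as a group. Ptbp1, the widely expressed repressor of exons flanked by pyrimidine tracts, measured 144 and 92.8 CPM in controls and 68.1 and 69.2 CPM in treated embryos (chr10:79854432-79864435). Its log2FC was -0.79 ± 0.38 (SE, adjusted p = 0.364 by edgeR), without overlap, and -0.42 without control replicate 1. Ptbp2, the form known from neurons and germ cells, measured 59.8 and 164 CPM in controls and 221 and 178 CPM in treated embryos (chr3:119718741-119784647). Its log2FC was 0.84 ± 0.51 (SE, adjusted p = 0.432 by edgeR), and the treated libraries lay above both controls. It was 0.30 without control replicate 1 and 1.74 without control replicate 2.

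Ptbp3, first described in blood cells, measured 50.1 and 153 CPM in controls and 159 and 148 CPM in treated embryos (chr4:59471868-59549378). Its groups overlapped, and its log2FC of 0.60 became 0.02 without control replicate 1. As shares of summed PTB FPKM, Ptbp1 was 66.6% and 31.1% in controls and 20.7% and 24.1% in treated embryos, and Ptbp2 was 24.0% and 47.8% in controls and 59.3% and 54.6% in treated embryos. The ratio of Ptbp2 to Ptbp1 FPKM was 0.361 and 1.54 in controls and 2.86 and 2.26 in treated embryos. The groups did not overlap in this ratio, but the order of the 2 genes differed between the 2 control libraries.

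**Figure D5:**
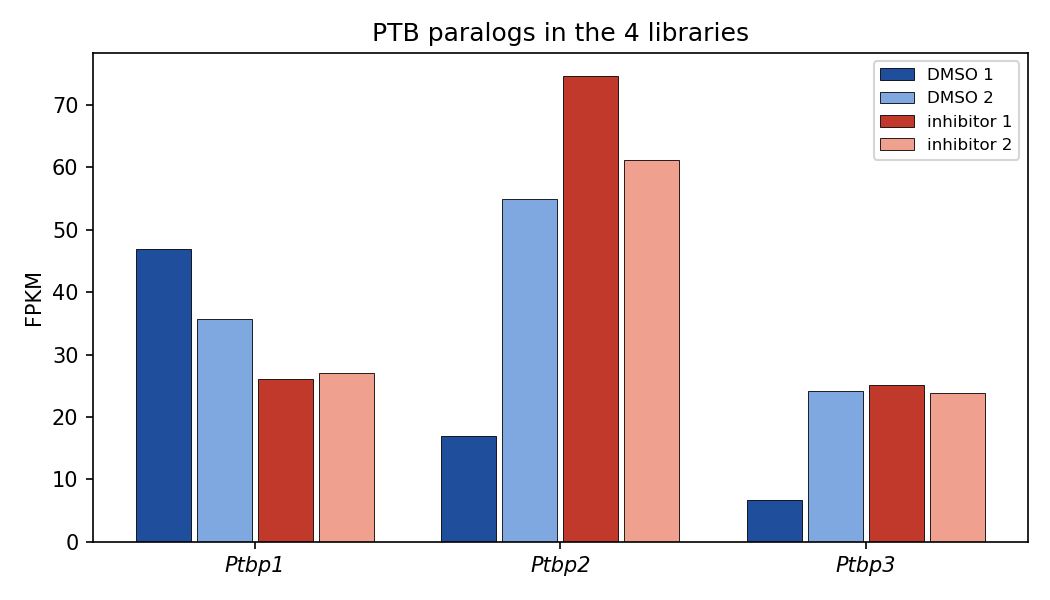
FPKM (y axis) of Ptbp1, Ptbp2 and Ptbp3, 1 bar per library. Ptbp1 is the most abundant of the 3 only in control replicate 1, and Ptbp2 leads in the other 3 libraries, at 55.0 FPKM in control replicate 2 and 74.6 and 61.2 FPKM in treated embryos.

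Among the other regulators, Rbfox2, which binds GCAUG near regulated exons, measured 37.2 and 53.7 CPM in controls and 69.1 and 78.1 CPM in treated embryos. Esrp1, the epithelial splicing regulator, measured 36.9 and 70.5 CPM in controls and 107 and 80.0 CPM in treated embryos. Their log2FC values were 0.69 ± 0.39 and 0.80 ± 0.44 (SE), with adjusted p = 0.406 and 0.403 by edgeR. Both had higher treated libraries without overlap, and 0.47 and 0.42 remained without control replicate 1.

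Celf1, which promotes decay of mRNAs with GU-rich elements and also acts in splicing, measured 112 and 70.7 CPM in controls and 72.0 and 64.8 CPM in treated embryos, with overlap and a log2FC of -0.42, or -0.03 without control replicate 1. Mbnl1, an antagonist of CELF1 in muscle development, measured 1.92 and 11.7 CPM in controls and 10.5 and 9.68 CPM in treated embryos, also with overlap. Its log2FC of 0.56 became -0.20 without control replicate 1, which held 32 counts against 203 to 226 in the other libraries. Esrp2 and Mbnl2 did not pass the count filter. Esrp2 had 2 and 0 counts in controls and 0 and 25 in treated embryos, and Mbnl2 had 0 and 5 counts in controls and 13 and 8 in treated embryos.

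RSEM's abundance-weighted transcript length gave a partial view of whether the isoform mix of these self-regulating genes differed. It moves only if transcripts of unequal length change in proportion, and 26 of the 44 members have more than 1 transcript in the annotation used, 5 of them with a non-coding transcript (Hnrnpa1, Hnrnpa2b1, Srsf3, Srsf7 and Srsf9). Of the 25 members that could be tested, 0 were called by limma on log2 length with Benjamini-Hochberg adjustment, beside 0.111% of 2700 genes, and 24 differed by less than 5% between group means. Ptbp1 had the smallest limma adjusted p of a member, 0.801, at 2956 and 2972 bases in controls and 2993 and 2986 bases in treated embryos.

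Hnrnpul1 was the exception in size, at 1513 and 1679 bases in controls and 1948 and 1725 bases in treated embryos, 15.1% longer without overlap, with an adjusted p of 0.889. A difference of 10% or more without overlap was seen in 2.41% of genes, and Hnrnpul1 rested on 20 to 99 counts a library. Srsf3 measured 2837 and 2975 bases in controls and 2984 and 2988 bases in treated embryos, and Srsf7 2507 and 2637 bases in controls and 2645 and 2654 bases in treated embryos. In both, control replicate 1 had the shorter mean and the other 3 libraries were alike. A poison exon that adds few bases would move this measure little, so a change in such an exon was not tested.

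Genes that work with SR and hnRNP proteins were counted from lists of general knowledge, and edgeR gave 0 of their genes an adjusted p under 0.05. DESeq2 with lengths, at the thresholds used for the members, called Tnpo3, Snrpa1 and Casc3 lower, beside 2.41% of genes. It called 0 of the list genes higher, beside 0.478%. Of 9 tested SR kinases and import factors, 6 were lower and 3 higher (median log2FC -0.31). Tnpo3, the import receptor of SR proteins, measured 234 and 91.4 CPM in controls and 54.0 and 41.2 CPM in treated embryos, a log2FC of -1.77 ± 0.51 (SE, adjusted p = 0.333 by edgeR and 0.0222 by DESeq2 with lengths), or -0.93 without control replicate 1. Clk4, a kinase that phosphorylates SR proteins in the nucleus, measured 128 and 99.0 CPM in controls and 58.8 and 53.2 CPM in treated embryos. Without control replicate 1 the median of this list was 0.07.

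Of 21 hnRNP-like RNA-binding genes under other symbols, 16 were lower and 5 higher (median -0.50), with Tardbp at 201 and 89.6 CPM in controls and 60.4 and 60.1 CPM in treated embryos, and Khdrbs1 at 222 and 151 CPM in controls and 95.4 and 103 CPM in treated embryos. The targets of SR recruitment, the U1 and U2 factors, had 26 of 27 genes lower (median -0.74). The exception, U2af1l4, measured 29.6 and 47.4 CPM in controls and 98.8 and 86.1 CPM in treated embryos, a log2FC of 1.26 ± 0.40 (SE, adjusted p = 0.333 by edgeR). Snrpa1, a U2 protein, measured 762 and 243 CPM in controls and 138 and 168 CPM in treated embryos, a log2FC of -1.72, or -0.65 without control replicate 1.

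Of 15 Sm and LSm genes, which form the ring around small nuclear RNAs, 13 were lower (median -0.80), with Lsm5 at -1.96 and Lsm4 at -1.20, or -0.74 and -1.04 without control replicate 1. Of 14 speckle and exon junction genes, 11 were lower (median -0.75), with Casc3 at -1.49 and Rbm8a at -0.90. In 3 of these lists (U1 and U2 factors, Sm and LSm proteins, speckle and exon junction proteins) the median was about as low as in the SR and hnRNP families. Without control replicate 1 the medians of the last 4 lists were -0.13, -0.37, -0.45 and -0.27, beside -0.50 for SR and -0.37 for hnRNP genes. At an unadjusted p under 0.05 the 5 lists, in the order given, had 2, 3, 6, 4 and 1 lower genes, beside 10.1% of all tested genes, and 1 higher gene in all, U2af1l4, beside 4.72%. No test set these lists against the SR and hnRNP genes.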

How the data were processed

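RNA-seq was measured in 4 mouse libraries of 10 embryos, grouped and numbered by the GEO labels. According to the submitters' processing notes, the tools were STAR 2.7.10 (alignment to mm10, where the authors kept reads with a unique position) and RSEM 1.3.3 (quantification). The deposited expected counts are RSEM's fragment estimates and are not normalized, with 3.97% to 4.49% of values not whole. The deposited FPKM is scaled by the authors to effective length and library fragments, and the deposited gene length, a score in bases, is the mean over transcripts weighted by abundance. The deposited TPM was not used. PCR duplicates were not removed by molecular identifiers, so counting error is only part of the error.

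Counts were rounded and filtered with filterByExpr (minimum count 10, minimum total 15), scaled with TMM (factors 0.873, 1.04, 1.04 and 1.06) and tested with edgeR 4.0.16 (quasi-likelihood, robust, two-sided) in R 4.3.3 over all 13549 genes, with Benjamini-Hochberg adjustment and the study's thresholds. The common biological coefficient of variation was 0.557. The SE of an edgeR log2FC was back-calculated as the absolute log2FC divided by the square root of the quasi-likelihood F. The bars in the plot of log2FC by member show the same quantity. It was not estimated directly and differed from the SE of DESeq2 with lengths. For Tra2b it was 0.648 by edgeR and 0.572 by DESeq2, and for Srsf11 0.364 and 0.433. DESeq2 1.42.0 (with and without deposited lengths) and limma 3.58.1 on log2(FPKM + 1) or log2(FPKM + 0.1) were alternatives. So were other scaling, filters, a replicate block and leaving out each library. The study itself used DESeq2, so the edgeR calls share its thresholds but not its test. Lengths were tested with limma on log2 values of genes with 2 or more transcripts and at least 10 counts in every library. The model was tested on simulated data. Members, lists and tests were chosen with earlier results of these data known. Genes were named by rule: SR genes with the 4 highest mean FPKM or the 3 lowest or 3 highest log2FC, hnRNP genes likewise with 5, 4 and 4, all members outside these families, every member with an unadjusted p under 0.05, called by DESeq2 or with a weighted length at least 10% apart without overlap, and the 2 smallest p-values of each list. Hnrnpu, Hnrnpd, Hnrnpa3, Hnrnph1, Hnrnph2 and Hnrnph3 are named outside the rule, after their values were seen. The paper calls the libraries of a group biological replicates. Since the labels do not say that they are separate experiments, p-values measure the spread between these libraries. Promoter sequences and coordinates are from RefSeq, GRCm38.p6, the assembly of mm10. Of the members, 16 span part of another gene, and without strand information their reads cannot be told apart.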

Additional observations from a re-analysis of the deposited data

How the results depend on the processing

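With edgeR, 0 members were called, but 4 (Srsf1, Srsf5, Tra2a and Tra2b) were called lower by DESeq2 on the same genes, by DESeq2 on every gene with a count, by DESeq2 with lengths and by edgeR with no filter on low counts, beside 3.54%, 2.4%, 2.41% and 2.63% of genes. When 1 library was left out, 0 to 17 members were called lower and 0 to 4 higher, with 17 and 4 reached without control replicate 2, where 14.9% and 15.8% of all genes were called. With all libraries, the adjusted p of Tra2b ranged from 4.29e-05 (edgeR with no filter on low counts) to 0.411 (edgeR with library totals). The SR median log2FC ranged from -0.96 to -0.50 and the hnRNP median from -0.97 to -0.37 with 1 library left out. Control replicate 1 decided the upper values, and no alternative brought either median above 0. The SR minus hnRNP difference was -0.0892 and -0.0908 by limma with the larger and the smaller pseudocount, -0.0756 with a replicate block and from -0.13 to 0.0167 with 1 library left out, so its sign was not stable. The cause was not tested. Same-numbered replicates did not deviate together (r = -0.03 across genes). With the replicate block, 0 members were called in either direction, the SR median was -0.77 and the hnRNP median -0.70. A few members changed sign, and all of these were near 0 except Mbnl1, at a log2FC of 0.56. Srrm2 was at 0.0349 with library totals and at 0.0353 and 0.0424 by limma, and from -0.19 to 0.0296 with 1 library left out. Srsf9 was at 0.0803 with library totals and at 0.0766 and 0.0794 by limma, and from -0.37 to 0.29. Hnrnpdl ranged from -0.0914 to 0.26 and Mbnl1 from -0.20 to 2.39. Library totals moved the median of all genes to 0.17, from 0.04, and limma to 0.12 and 0.16. Relative to these medians Srrm2 and Srsf9 stayed lower. No member's weighted length was called under any alternative. The depth was alike in all libraries, so precision is set by 2 libraries a group and by the distance between the control libraries, and the filter leaves 3 members of few counts without a test.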
